A study of Mus musculus with 16 samples.

Results

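The 7 genes described here mark Schwann cells or nerve supply and were compared across 4 fat depots of obese mice: Sox10, S100b, Prx, Mbp, Pmp22, Ngfr and Th. They were taken by symbol from a table of 46206 distinct symbols, and each matched 1 entry. RNA was sequenced from 16 libraries, 4 each of fat from the thigh (tAT), brown fat (BAT), epididymal fat (eWAT, visceral) and inguinal fat (iWAT, subcutaneous). All groups came from male mice, with the strain written as C57BL66/J, that were made obese with high-fat feeding, so that no depot had a lean or untreated counterpart. The values are the authors' FPKM, in which the reads of a gene are divided by its length and by the reads mapped in that library. Whether each library came from its own mouse is not stated, and the p-values below therefore speak of library-to-library spread, part or all of which could be technical.

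Schwann cells are the glia of peripheral nerve. Those around large axons wrap them in myelin, a compacted membrane held together by a small set of proteins, while those around thin axons, as in most of the sympathetic supply of fat, ensheath bundles of axons without myelin. Sympathetic nerves release noradrenaline into fat, where it drives lipolysis and heat production. Their cell bodies lie in ganglia outside the depot, so a depot's RNA holds the messages of its glia, vessels, immune cells and adipocytes but few of the neuron's own.

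All libraries carried fat markers, with Adipoq, Plin1, Lep, Cidec and Fabp4 summing to 10830 to 29400 FPKM. Skeletal muscle markers (11 of 12 matched) summed to over 1000 FPKM in 5 libraries, which were tAT 1, 2 and 4 (25410, 25530 and 16160) and BAT 3 and 4 (2954 and 2407), against 291.7 in tAT 3. Brown adipocyte markers summed to 899.6 to 2612 FPKM in tAT, 10910 to 14450 in BAT, 28.3 to 63.6 in eWAT and 106.1 to 193.7 in iWAT. Markers of oligodendrocytes, the myelin-forming glia of the brain and spinal cord, summed to at most 1.41 FPKM in any library, and Opalin was listed at 0 in 15 of 16. Between depots the scale itself moved: the median gene was 0.54 lower in BAT than in iWAT on the log2(FPKM + 1) scale, 0.52 lower in BAT than in eWAT and 0.44 higher in tAT than in BAT. Values are therefore also given after median-of-ratios scaling, which put the 6 medians between -0.02 and 0.02.

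The 7 genes did not move together. S100b was highest in BAT, Pmp22 was lowest there, Prx and Mbp were highest in iWAT, Sox10 was lowest in eWAT, Ngfr was higher in tAT and BAT than in the white depots, and Th was at or near 0 in all 4. Of the 7, 4 (S100b, Prx, Mbp and Pmp22) reached 1 FPKM in at least 4 libraries and entered the limma fit of 14991 genes, Prx only through its 4 iWAT libraries. Sox10, Ngfr and Th stayed below that level, so the counts that follow leave them out. With 4 members tested, calls over all genes were so common that counts alone say little about the members, and their sizes and order follow gene by gene.

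In tAT against iWAT, 1 member was higher (S100b) and 3 were lower (Prx, Mbp and Pmp22) at an adjusted p under 0.05, where 39.9% of all tested genes passed, 10.5% higher and 29.4% lower. In tAT against eWAT, 1 was higher (S100b) and 1 lower (Pmp22), beside 57.7% of genes, 21.6% higher and 36% lower. In tAT against BAT, 2 were higher (Mbp and Pmp22) and 1 lower (S100b), beside 69.8%, 58.6% higher and 11.2% lower. In BAT against iWAT, 1 was higher (S100b) and 3 lower, beside 74.3%, 12.7% higher and 61.5% lower. In BAT against eWAT, 1 was higher (S100b) and 1 lower (Pmp22), beside 74.2%, 15.2% higher and 59% lower. In eWAT against iWAT, 0 were higher and 3 lower (S100b, Prx and Mbp), beside 14%, 8.48% higher and 5.52% lower. Prx, counted as lower in each comparison with iWAT, entered this fit only through iWAT, so the filter favoured those calls. Its differences with no filter are given with that gene below.

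After median-of-ratios scaling the members' counts stayed as they were in 4 comparisons, and Mbp moved in the other two, which gave 1 higher and 2 lower in tAT against BAT and 2 higher and 1 lower in BAT against eWAT. The background on that scale was 36.1% for tAT against iWAT (15% higher, 21.2% lower), 57.5% for tAT against eWAT (26.2% and 31.2%) and 53.8% for tAT against BAT (27.4% and 26.4%). It was 64% for BAT against iWAT (30.6% and 33.4%), 69.2% for BAT against eWAT (33.8% and 35.5%) and 13.5% for eWAT against iWAT (8.59% and 4.96%). Libraries of 2 depots that did not overlap on the FPKM scale were common too, at 33.7% of tested genes for tAT against iWAT, 45.3% for tAT against eWAT, 61.2% for tAT against BAT, 71.7% for BAT against iWAT, 69.6% for BAT against eWAT and 19.1% for eWAT against iWAT.

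**Figure D1:**
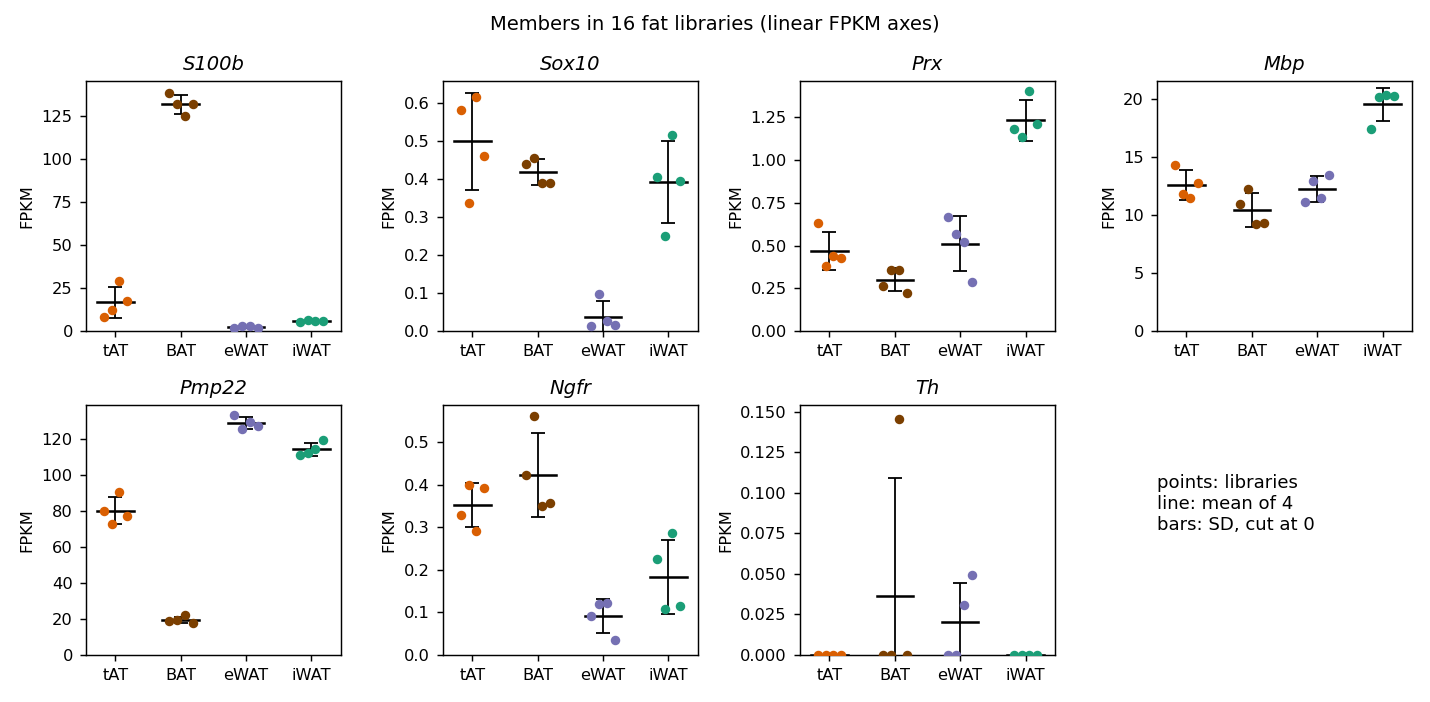
FPKM of the 7 genes in each library (points, linear axes from 0), with the mean and SD of the 4 libraries of a depot. S100b lies between 125.1 and 138.6 FPKM in BAT and under 30 elsewhere, Sox10 lies under 0.1 FPKM in all 4 eWAT libraries, and Prx and Mbp are highest in iWAT.

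Sox10 encodes the transcription factor that sets and maintains Schwann cell identity at every stage, myelinating or not (ENSMUSG00000033006.9, chromosome 15, 79154908 to 79165240, minus strand, mm10). It was listed at 0.5834, 0.3372, 0.6168 and 0.4624 FPKM in tAT 1 to 4, at 0.4398, 0.457, 0.3902 and 0.3902 in BAT, at 0.01466, 0.09819, 0.02646 and 0.01533 in eWAT, and at 0.4062, 0.2518, 0.5168 and 0.3943 in iWAT. The libraries of tAT, BAT and iWAT overlapped, and all 4 eWAT libraries lay below every other library. Mean FPKM was 12.9 times as high in tAT as in eWAT and 10.8 times as high in BAT as in eWAT, and in eWAT it was 0.0986 of the iWAT mean. The size of these folds turned on eWAT 2, the highest eWAT library: without it they were 26.6 for tAT and 22.3 for BAT, and with all libraries after median-of-ratios scaling the BAT fold was 17.2. Each of these 3 differences gave p = 0.0286 in a two-sided exact permutation test of 4 against 4 libraries, the smallest p that design allows. Adjusted over the 18 such tests made on FPKM, for Sox10, Ngfr and Foxd3, this p was 0.0514 and did not pass 0.05. The same 3 differences had an adjusted p of 0.0429 in these tests after median-of-ratios scaling, so passing 0.05 turned on the scale. In a limma fit with no filter on low values, which holds Sox10 among all genes, the log2(FPKM + 1) difference was 0.53 for tAT minus eWAT (adjusted p = 3.84e-05), 0.45 for BAT minus eWAT (5.50e-05) and -0.42 for eWAT minus iWAT (0.00189). The other 3 pairs were not separated on the FPKM scale (exact permutation p = 0.257 for tAT against iWAT, 0.286 for tAT against BAT and 0.743 for BAT against iWAT). After median-of-ratios scaling BAT lay above iWAT without overlap (0.572 ± 0.0293 in BAT, 0.34 ± 0.0935 in iWAT, SD, n = 4 each). The exact permutation p of that pair was 0.0286, and 0.0429 once adjusted. In bulk tissue, fewer Schwann cells and less RNA per Schwann cell cannot be told apart.

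Other genes of the Schwann cell lineage, picked out here after their values were seen, were set beside Sox10. Cdh19, a cadherin of the Schwann cell lineage, averaged 1.75 ± 0.335 FPKM in tAT, 1.29 ± 0.162 in BAT, 0.0976 ± 0.0338 in eWAT and 1.13 ± 0.224 in iWAT. All 4 eWAT libraries of Cdh19 lay below every other library. In limma, Cdh19 was higher by 1.32 in tAT (adjusted p = 1.35e-07) and by 1.06 in BAT (1.78e-07) than in eWAT, and lower by 0.95 in eWAT than in iWAT (2.61e-05). Foxd3, a regulator of the neural crest and of glia derived from it, was low throughout, at 0.159 FPKM in tAT, 0.112 in BAT, 0.0167 in eWAT and 0.126 in iWAT on average. Its exact permutation p was 0.0286 for eWAT against each other depot, 0.0514 once adjusted, and 0.0429 once adjusted after median-of-ratios scaling. Gfra3, a receptor of the GDNF family, averaged 0.767 FPKM in tAT, 0.973 in BAT, 0.0646 in eWAT and 0.39 in iWAT. Over the 16 libraries, which share their depots, Sox10 had a Pearson r of 0.96 with Cdh19 on the log2(FPKM + 1) scale, and 0.64 over deviations from the depot means. Erbb3, the neuregulin receptor of Schwann cells that epithelia also express, did not follow, with 0.327 ± 0.0486 FPKM in tAT, 0.603 ± 0.0759 in BAT, 0.504 ± 0.446 in eWAT (0.283 without eWAT 3) and 0.256 ± 0.0665 in iWAT.

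The wider list of 29 Schwann cell identity and regulator genes had 14 tested members, most of them also active in other cells. Against iWAT, 2 were higher in tAT (S100b and Cdh19) and 3 lower, with a median difference of -0.19 beside -0.11 over all tested genes. Of all tested genes 10.5% were higher in that comparison and 29.4% lower. Against eWAT, 3 were higher in tAT and 4 lower, with medians of 0.07 and -0.08. Of all tested genes 21.6% were higher in that comparison and 36% lower. In eWAT against iWAT, 2 were higher (Egr2 and Adam23), 2 lower (S100b and Cdh19) and 10 not called, beside 8.48% and 5.52% of all tested genes. In BAT against eWAT, 2 were higher (S100b and Cdh19) and 9 lower, beside 15.2% and 59%. Adam23, a membrane protein that binds LGI ligands, fell in tAT by 1.49 relative to iWAT (adjusted p = 3.36e-05) and by 2.41 relative to eWAT (7.97e-08). Egr2, the zinc finger factor that switches on myelin genes and that macrophages also use, averaged 0.788 FPKM in tAT, 0.175 in BAT, 3.27 in eWAT and 1.3 in iWAT. Its level in eWAT was the highest of the 4 depots, and macrophage markers summed to 133.9 to 255.9 FPKM in tAT, 21.2 to 36.2 in BAT, 812.6 to 1582 in eWAT and 415.8 to 676.8 in iWAT. Their part in the Egr2 levels was not tested.

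**Figure D2:**
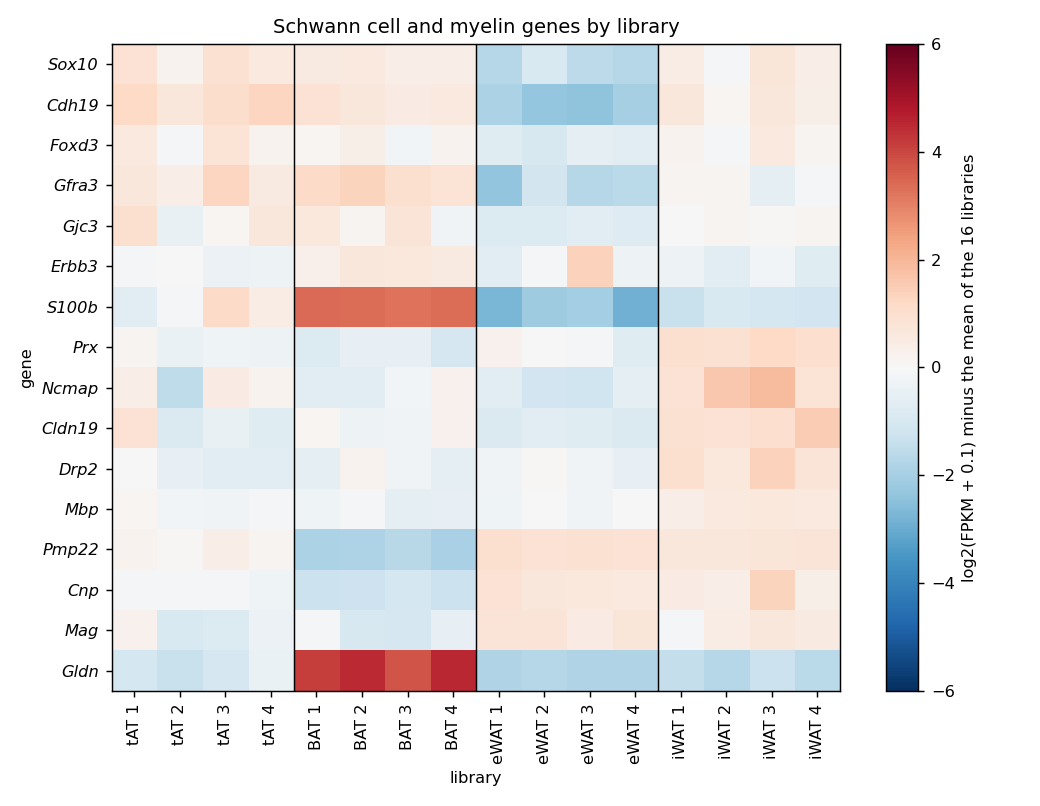
Log2(FPKM + 0.1) of 16 Schwann cell and myelin genes in each of the 16 libraries, less the gene's mean over the libraries (red above, blue below). Sox10, Cdh19, Foxd3 and Gfra3 are low in the 4 eWAT libraries, Prx, Ncmap, Cldn19 and Drp2 are high in the 4 iWAT libraries, and S100b and Gldn are high in the 4 BAT libraries.

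S100b encodes a calcium-binding protein used as a Schwann cell and glial marker, which brown adipocytes also make (ENSMUSG00000033208.7, chromosome 10, 76253853 to 76261159, plus strand, mm10). In tAT it was listed at 8.286, 12.22, 29.10 and 17.80 FPKM in libraries 1 to 4, against 138.6, 131.9, 125.1 and 132.0 in BAT. In eWAT it was at 1.818, 2.899, 3.073 and 1.659 FPKM, and in iWAT at 5.111, 6.788, 6.071 and 5.723. The 4 depots did not overlap, and the order BAT, tAT, iWAT, eWAT held on both scales. Relative to iWAT, S100b rose in tAT by 1.24 ± 0.26 (SE) on the log2(FPKM + 1) scale (limma adjusted p = 0.00183) and in BAT by 4.27 ± 0.26 (8.87e-10). Relative to eWAT it rose in tAT by 2.30 (3.83e-06) and in BAT by 5.33 (5.40e-11), and it fell in tAT by 3.03 relative to BAT (9.37e-08). Between the white depots it fell in eWAT by 1.06 relative to iWAT (adjusted p = 0.0147, and 0.055 without eWAT 1). As mean FPKM, tAT had 2.85 times the iWAT level and 7.13 times the eWAT level, and BAT had 22.3 and 55.8 times those levels, or 35.0 and 87.6 times after median-of-ratios scaling.

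The promoter window of S100b (RefSeq, GRCm38.p6, 250 bases before to 50 after the start) is shown because this gene had the widest range among the members. It lies at chr10:76253586-76253885 on the plus strand, with a GC share of 53.7%, and held none of the motifs searched on both strands, which are named with the Th window, so no base is in capitals.
S100b promoter: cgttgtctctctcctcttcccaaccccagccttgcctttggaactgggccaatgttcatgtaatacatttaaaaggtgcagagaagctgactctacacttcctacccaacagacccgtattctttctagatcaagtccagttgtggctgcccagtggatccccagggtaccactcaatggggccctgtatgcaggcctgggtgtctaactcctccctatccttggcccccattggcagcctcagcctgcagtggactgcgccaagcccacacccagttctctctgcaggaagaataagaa

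S100b did not keep step with Sox10. Its mean in tAT was 0.128 of that in BAT, while Sox10 was 1.19 times as high in tAT as in BAT on the FPKM scale, with overlapping libraries and a log2 difference that turned to -0.10 after median-of-ratios scaling. Within tAT, S100b was highest in tAT 3, which also had the highest sum of brown adipocyte markers (2612 FPKM) and the lowest sum of muscle markers (291.7 FPKM). With the muscle sum as a covariate, the difference of tAT minus iWAT was 1.81 (adjusted p = 0.000587). Without the 5 muscle-rich libraries it was 2.13, a value that rests on tAT 3 alone, the tAT library with the highest S100b. Without tAT 3 it was 0.94 (0.00168). Ucp1, the uncoupling protein of brown and beige adipocytes, averaged 270.3 FPKM in tAT, 4536 in BAT, 0.0819 in eWAT and 0.243 in iWAT, and its part in the S100b difference was not tested. The 5 genes most like S100b over the 16 libraries were Slc25a35, Sdha, Idh3a, Uqcrc2 and Cpt2, with Pearson r of 0.99 each, and 0.73 to 0.84 over deviations from the depot means.

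**Figure D3:**
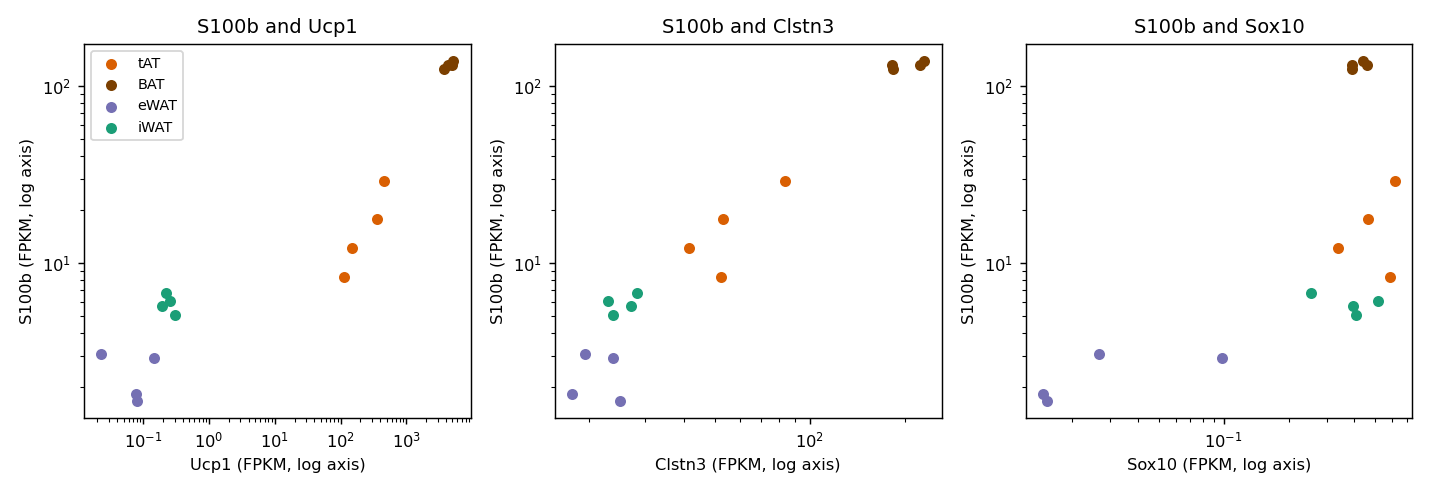
S100b against Ucp1, Clstn3 and Sox10 in the 16 libraries (FPKM, log axes on both sides, points coloured by depot). S100b and Ucp1 are both highest in BAT and next highest in tAT, while the libraries of tAT, BAT and iWAT share one range of Sox10 from 0.252 to 0.617 FPKM at S100b levels from 5.11 to 138.6 FPKM.

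Clstn3, whose brown adipocyte isoform is known in mice to promote S100B secretion, had the same order of the top 2 depots, at 57.4 ± 17.9 FPKM in tAT, 204.6 ± 25.7 in BAT, 21.4 ± 3.48 in eWAT and 25.5 ± 2.54 in iWAT (SD, n = 4 each). The table has 1 value per gene, so its isoforms were not separated. Clstn3 rose in tAT by 1.098 relative to iWAT (limma adjusted p = 0.000208) and in BAT by 2.95 (4.31e-10). S100a1, another S100 protein, expressed in heart and muscle and named here after its values were seen, averaged 291 FPKM in tAT, 549.9 in BAT, 189 in eWAT and 224.3 in iWAT, and rose in BAT by 1.31 relative to iWAT (1.93e-05). Of 14 tested genes in the list of S100 proteins and calsyntenins, 2 were higher in tAT than in iWAT (S100b and Clstn3) and 8 lower. Of all tested genes 10.5% were higher and 29.4% lower in that comparison. The list had a median of -0.69 beside -0.11 over all genes. In BAT against iWAT, 4 were higher and 10 lower, where 12.7% of all tested genes were higher and 61.5% lower. After median-of-ratios scaling these counts were 4 and 9, beside 30.6% and 33.4%, so the share of higher genes was then near that of all genes. S100a4, carried by fibroblasts and macrophages, fell in tAT by 1.97 (5.58e-05) and in BAT by 4.54 (4.20e-10) relative to iWAT. Dip2a, which overlaps S100b on the opposite strand, ran from 7.70 to 10.4 FPKM in tAT, 11.1 to 14.1 in BAT, 4.60 to 8.58 in eWAT and 6.77 to 8.55 in iWAT. Without strand, reads of the overlap cannot be told apart, and the sources used here do not give the counting setting.

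Prx encodes periaxin, a scaffold protein of myelinating Schwann cells that keeps the myelin sheath stable (ENSMUSG00000053198.12, chromosome 7, 27499324 to 27520214, plus strand, mm10). It was listed at 0.6294, 0.383, 0.4397 and 0.4255 FPKM in tAT, at 0.2643, 0.3579, 0.3571 and 0.2238 in BAT, at 0.6637, 0.5663, 0.5226 and 0.2862 in eWAT, and at 1.178, 1.133, 1.401 and 1.208 in iWAT. All 4 iWAT libraries lay above the other 12. Since Prx met the filter on low values only through iWAT, its differences are given from the limma fit with no filter. There, relative to iWAT, Prx fell in tAT by 0.60 (adjusted p = 0.00021), in BAT by 0.78 (1.71e-06) and in eWAT by 0.57 (0.000759). Among the other depots that fit gave adjusted p = 0.802 for tAT against eWAT, 0.117 for tAT against BAT and 0.0494 for BAT against eWAT, where the libraries overlapped and the p with the filter was 0.0601. On the FPKM scale the tAT libraries lay above the BAT libraries, and after median-of-ratios scaling they overlapped, with a ratio of means of 1.06. As mean FPKM, tAT had 0.382 of the iWAT level, BAT 0.245 and eWAT 0.414. Gm15541, an antisense transcript that overlaps Prx, stayed between 0.078 and 0.245 FPKM over the 16 libraries.

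Among the other low genes of myelin, Ncmap, Cldn19 and Drp2 were also highest in iWAT by their means. Ncmap, a protein of peripheral myelin, averaged 0.201 FPKM in tAT, 0.143 in BAT, 0.0571 in eWAT and 0.648 in iWAT. Cldn19, a claudin of Schwann cell junctions, averaged 0.0666 FPKM in tAT (0.0139 without tAT 1, at 0.2249), 0.0784 in BAT, 0.00652 in eWAT and 0.288 in iWAT. Drp2, the dystrophin relative that binds periaxin, averaged 0.108 FPKM in tAT, 0.126 in BAT, 0.136 in eWAT and 0.431 in iWAT. On the FPKM scale the iWAT libraries of these 3 genes lay above those of each other depot. After median-of-ratios scaling iWAT overlapped with tAT for Cldn19 and with BAT for Drp2. These 3 genes were below the level of testing and were named after their values were seen. Levels of the remaining low genes in the list of myelin structure genes are not given here, so the 3 do not stand for that list.

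Mbp encodes myelin basic protein, which compacts the cytoplasmic faces of myelin, and the same gene also makes Golli transcripts in cells without myelin (ENSMUSG00000041607.15, chromosome 18, 82475146 to 82585637, plus strand, mm10, 16 annotated transcripts). It was listed at 14.35, 11.84, 11.44 and 12.80 FPKM in tAT, at 10.98, 12.24, 9.196 and 9.28 in BAT, at 11.15, 12.94, 11.49 and 13.44 in eWAT, and at 17.43, 20.16, 20.34 and 20.23 in iWAT. On the FPKM scale the iWAT libraries lay above all others, and the other 3 depots overlapped. Relative to iWAT, Mbp fell in tAT by 0.60 ± 0.10 (SE; limma adjusted p = 0.000394), in BAT by 0.85 (1.57e-06) and in eWAT by 0.63 (0.000871). Its place in BAT depended on the scale. After median-of-ratios scaling BAT minus iWAT shrank to -0.24 (adjusted p = 0.0392), and their libraries overlapped. The difference of tAT minus BAT was 0.26 on FPKM (adjusted p = 0.0349) and -0.25 after median-of-ratios scaling (0.0417), and BAT minus eWAT was -0.22 (0.0623) and 0.37 (0.0033). Without the 5 muscle-rich libraries, which leaves 1 tAT and 2 BAT libraries, tAT minus BAT was -0.02. On the median-of-ratios scale Mbp averaged 11.8 ± 0.891 in tAT, 14.2 ± 1.57 in BAT, 10.8 ± 1.27 in eWAT and 16.9 ± 1.38 in iWAT. Which of its transcripts were counted cannot be read from 1 value per gene.

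Pmp22 encodes a membrane protein of compact peripheral myelin that fibroblasts and many epithelia also make (ENSMUSG00000018217.11, chromosome 11, 63128982 to 63159547, plus strand, mm10). It was listed at 79.61, 72.53, 90.19 and 77.36 FPKM in tAT, at 18.67, 19.37, 21.89 and 17.99 in BAT, at 133.1, 125.4, 129.2 and 127.1 in eWAT, and at 111.2, 112.1, 114.2 and 119.3 in iWAT. No 2 depots overlapped, and Pmp22 was highest in eWAT, where Sox10 was lowest. Relative to iWAT, Pmp22 fell in tAT by 0.51 ± 0.08 (SE; limma adjusted p = 0.000147) and in BAT by 2.50 (3.12e-13). Relative to eWAT it fell in tAT by 0.68 (3.23e-06) and in BAT by 2.67 (1.24e-13), and relative to BAT it rose in tAT by 1.98 (1.06e-11). After median-of-ratios scaling these BAT differences were -1.86 from iWAT and -2.05 from eWAT, and tAT minus BAT was 1.45. The 2 white depots were neighbours in the order, with eWAT 0.17 above iWAT (95% interval 0.01 to 0.33, adjusted p = 0.149). Over the 16 libraries Pmp22 had a Pearson r of -0.96 with S100b and -0.42 with Sox10, and over deviations from the depot means the sign turned, to 0.36 and 0.39. The most similar genes were Trf, Mgst3, Smim1, Mpp1 and Sucnr1, with r of 0.996 to 0.998, and 0.42 to 0.84 over deviations from the depot means.

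Pmp22 is known to use alternative starts, and RefSeq lists 4 promoter windows for it on GRCm38.p6. The first and the last are shown because they differ in base composition, with GC shares of 50.7% and 72.3%, and the table, with 1 value per gene, does not separate their use. The first lies at chr11:63128732-63129031 and the last at chr11:63132553-63132852, both on the plus strand, and neither held a searched motif.
Pmp22 start 1: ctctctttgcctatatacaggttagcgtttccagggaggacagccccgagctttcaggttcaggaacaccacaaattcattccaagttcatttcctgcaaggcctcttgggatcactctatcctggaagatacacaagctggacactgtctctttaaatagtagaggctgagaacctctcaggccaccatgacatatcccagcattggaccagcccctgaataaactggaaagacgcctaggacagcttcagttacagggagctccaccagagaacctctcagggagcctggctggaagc
Pmp22 start 4: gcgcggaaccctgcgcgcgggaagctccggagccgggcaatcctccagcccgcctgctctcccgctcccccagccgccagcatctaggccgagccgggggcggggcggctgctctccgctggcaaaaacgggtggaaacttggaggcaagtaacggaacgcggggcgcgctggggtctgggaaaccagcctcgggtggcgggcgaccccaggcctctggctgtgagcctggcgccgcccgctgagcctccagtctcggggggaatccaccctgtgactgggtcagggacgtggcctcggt

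The list of 19 myelin structure genes, which holds Prx, Mbp and Pmp22, had 10 tested members. Against iWAT, 0 were higher and 7 lower in tAT, where 10.5% of all tested genes were higher and 29.4% lower. Mbp, Pmp22, Prx, Cnp, Pllp and Cadm4 were among the 7, and the median was -0.55 beside -0.11 over all tested genes. Prx is counted in this list from the filtered fit, which it entered only through iWAT. Against eWAT, 2 were higher in tAT and 5 lower, beside 21.6% and 36% of all tested genes. In eWAT against iWAT 2 were higher (Pllp and Mpp6) and 4 lower, among them Mbp and Prx, beside 8.48% and 5.52%. Cnp, an enzyme of myelin that other cells also carry, averaged 6.71 FPKM in tAT, 3.09 in BAT, 12 in eWAT and 12 in iWAT. Gldn, the gliomedin that gathers sodium channels at nodes of Ranvier, was the exception in BAT, at 0.0896 ± 0.0564 FPKM in tAT, 6.63 ± 1.58 in BAT, 0.00197 ± 0.00394 in eWAT and 0.0247 ± 0.0175 in iWAT. Gldn met the filter on low values only through BAT, and in the limma fit with no filter it was higher in BAT by 2.87 than in iWAT (adjusted p = 7.72e-11) and by 2.90 than in eWAT (5.39e-11). In BAT, oligodendrocyte markers and neuron markers summed to 0.087 to 0.311 FPKM and to 1.15 to 1.83 FPKM, and their part in the Gldn level was not tested.

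**Figure D4:**
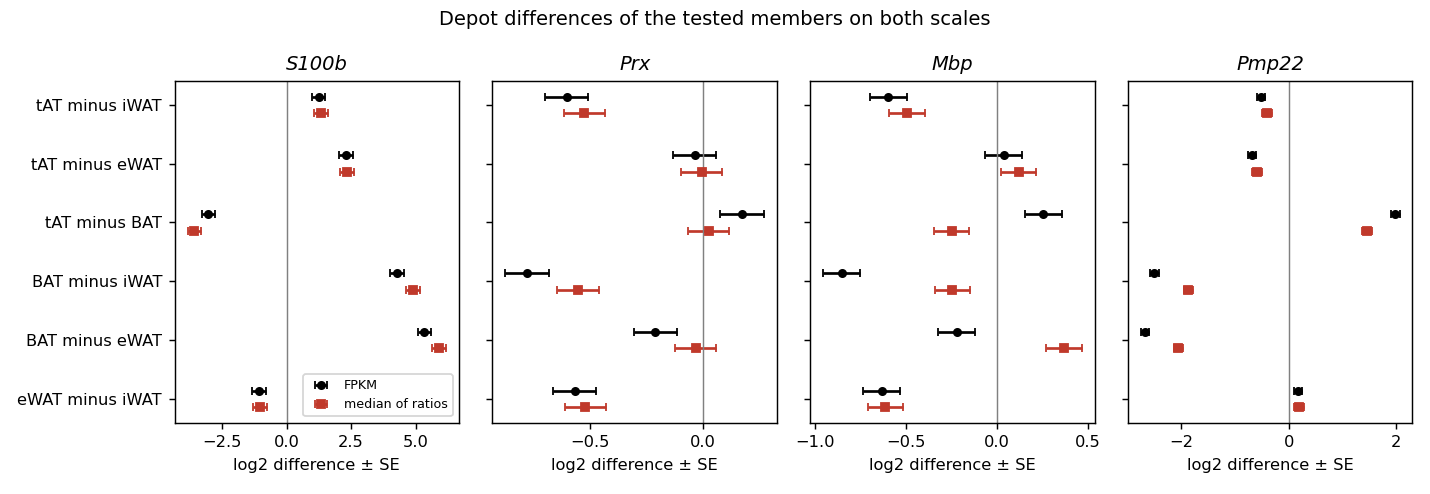
Depot differences of the 4 tested members on the log2(FPKM + 1) scale (black circles) and after median-of-ratios scaling (red squares), with SE from limma. Mbp changes sign between the scales for tAT minus BAT (0.26 and -0.25) and for BAT minus eWAT (-0.22 and 0.37), while S100b and Pmp22 keep their direction in all 6 comparisons.

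Ngfr encodes p75, the low-affinity receptor of neurotrophins, carried by non-myelinating and immature Schwann cells and by some stromal cells (ENSMUSG00000000120.6, chromosome 11, 95568818 to 95587735, minus strand, mm10). It was listed at 0.3292, 0.3979, 0.2914 and 0.391 FPKM in tAT, at 0.4224, 0.5612, 0.35 and 0.3576 in BAT, at 0.09069, 0.1193, 0.1228 and 0.03556 in eWAT, and at 0.2243, 0.1071, 0.2872 and 0.1143 in iWAT. Every tAT and BAT library lay above every library of the 2 white depots, tAT and BAT overlapped, and so did eWAT and iWAT. The exact permutation p was 0.0286 for tAT and for BAT against each white depot (0.0514 adjusted over the 18 tests). It was 0.286 for tAT against BAT and 0.171 for eWAT against iWAT. After median-of-ratios scaling the permutation tests of tAT and BAT against each white depot had an adjusted p of 0.0429. In the limma fit with no filter, tAT minus iWAT was 0.19 (adjusted p = 0.0372), BAT minus iWAT 0.27 (0.0023), tAT minus eWAT 0.31 (0.00132) and BAT minus eWAT 0.38 (0.000107). As mean FPKM, tAT had 1.92 times the iWAT level and 3.83 times the eWAT level. After median-of-ratios scaling tAT and BAT no longer overlapped, with 0.329 ± 0.0495 in tAT and 0.575 ± 0.118 in BAT (SD, n = 4 each). The exact permutation p of that pair was then 0.0286, and 0.0429 once adjusted.

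Around Ngfr, the ligands and receptors of the neurotrophin and GDNF families differed widely between depots. Ntrk3, the receptor of neurotrophin 3, averaged 17.6 ± 3.82 FPKM in tAT, 38.3 ± 4.93 in BAT, 0.42 ± 0.0951 in eWAT and 3.15 ± 0.844 in iWAT. It rose in tAT by 2.16 relative to iWAT (limma adjusted p = 3.86e-07) and by 3.69 relative to eWAT (1.88e-10). Ntrk2, the receptor of brain-derived neurotrophic factor, averaged 50.4 FPKM in tAT, 30.2 in BAT, 37 in eWAT and 57 in iWAT. Nrtn, which encodes the GDNF family ligand neurturin, averaged 1.23 ± 0.405 FPKM in tAT, 6.92 ± 0.425 in BAT, 0.67 ± 0.541 in eWAT and 0.285 ± 0.0322 in iWAT, a rise of 0.78 in tAT (0.00302) and of 2.62 in BAT (2.25e-09) relative to iWAT. By their means, its receptor components ran against it between BAT or tAT and the white depots. Gfra2, like Nrtn, was higher in eWAT than in iWAT. Ret, the signalling subunit, averaged 4.35 ± 1.71 FPKM in tAT, 0.318 ± 0.028 in BAT, 10.9 ± 1.37 in eWAT and 14.5 ± 4.58 in iWAT, and Gfra2, the subunit that binds neurturin, 1 ± 0.283 FPKM in tAT, 0.384 ± 0.0669 in BAT, 4.26 ± 0.69 in eWAT and 2.89 ± 0.645 in iWAT. Relative to iWAT, Ret fell in tAT by 1.54 (8.51e-05) and Gfra2 by 0.95 (7.99e-05). This list had 15 tested genes among 23. In tAT, 2 were higher and 5 lower than in iWAT, beside 10.5% and 29.4% of all tested genes. Relative to eWAT, 4 were higher and 6 lower in tAT, beside 21.6% and 36%. In BAT, 3 were higher and 7 lower than in iWAT, beside 12.7% and 61.5%. After median-of-ratios scaling these counts were 5 and 7, beside 30.6% and 33.4%.

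**Figure D5:**
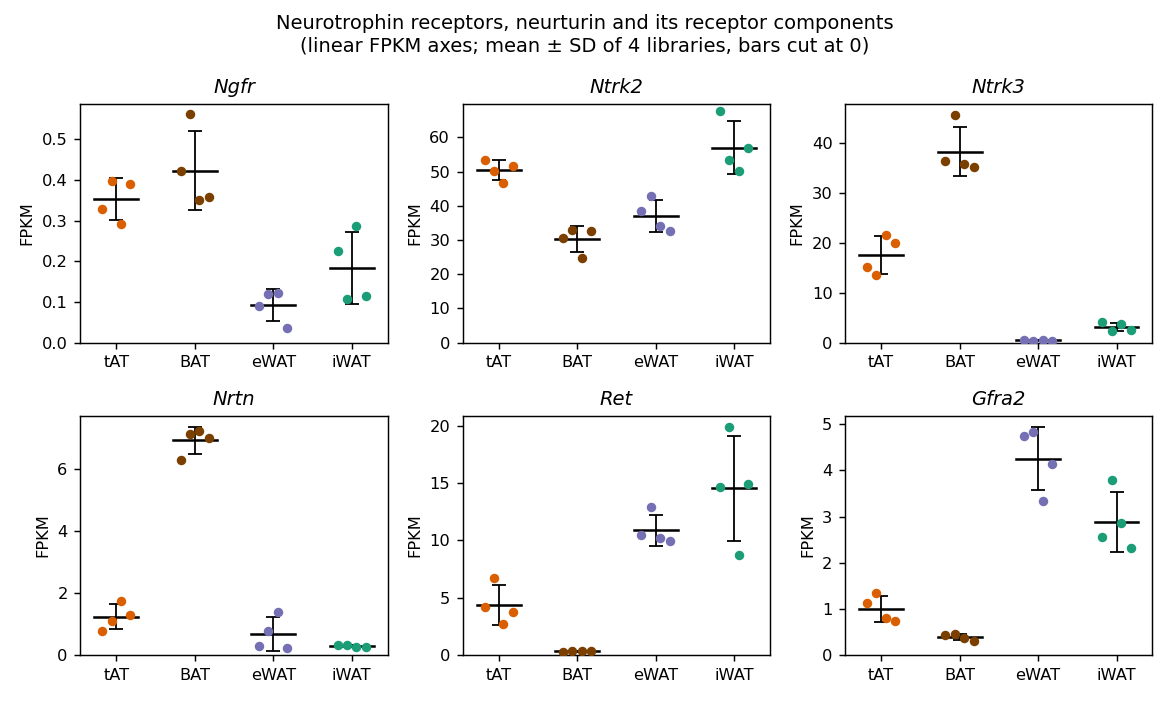
FPKM of the neurotrophin receptors Ngfr, Ntrk2 and Ntrk3, of neurturin (Nrtn) and its receptor components Ret and Gfra2 in each library (points, linear axes from 0), with the mean and SD of the 4 libraries of a depot. Ntrk3 and Nrtn are highest in BAT and next highest in tAT by their means, and Ret and Gfra2 are higher in the white depots than in BAT.

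Of the class 3 semaphorins, axon guidance cues that repel many axons, and their receptors, 10 of 14 were tested. Against iWAT, 2 were higher in tAT (Nrp1 and Nrp2, neuropilins that vessels also carry) and 2 lower (Sema3c and Plxna3). Of all tested genes 10.5% were higher in that comparison and 29.4% lower. Nrp2 averaged 8.81 ± 0.794 FPKM in tAT, 18.4 ± 1.55 in BAT, 6.04 ± 0.632 in eWAT and 5.57 ± 1.64 in iWAT. Sema3c averaged 8.27 ± 4.39 FPKM in tAT, 0.898 ± 0.43 in BAT, 26.7 ± 3.57 in eWAT and 21.8 ± 4.42 in iWAT, and relative to iWAT its log2 difference was -1.399 in tAT (limma adjusted p = 0.000766) and -3.60 in BAT (5.72e-09).

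Th encodes tyrosine hydroxylase, the rate-limiting enzyme of catecholamine synthesis and the usual marker of sympathetic axons (ENSMUSG00000000214.9, chromosome 7, 142892752 to 142931128, minus strand, mm10). It was listed at 0 in 13 of 16 libraries, among them all 4 of tAT and all 4 of iWAT. The others were BAT 3 at 0.1453 FPKM, eWAT 3 at 0.03103 and eWAT 4 at 0.04939. No depot separated from another, and no fold or test of Th is reported, although the limma fit with no filter held it among all genes. Since the sequencing depth is unknown and an exact 0 can be a failed estimate, these values do not show that the transcript was absent. Of related genes, Dbh, which makes noradrenaline from dopamine, was listed at 0 in 15 of 16 libraries. Npy, a peptide released with noradrenaline and named here after its values were seen, was listed at 0 in all tAT and BAT libraries, and averaged 0.908 ± 0.567 FPKM in eWAT and 0.0705 ± 0.0871 in iWAT. Ddc, the next enzyme after Th, averaged 0.0526 FPKM in tAT, 0.0542 in BAT, 0.286 in eWAT and 0.142 in iWAT.

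The Th promoter window is shown because its cAMP response element is the textbook regulatory site of this gene. It lies at chr7:142899946-142900245 on the minus strand (RefSeq, GRCm38.p6), and capitals mark 2 overlapping matches to TGACGT, 1 on each strand. The motifs searched on both strands were ACAAAG or ACAATG for SOX factors, GTGGGCG for EGR factors, TGACGT for the core of the cAMP response element, and TATAAA. They occurred in 28.6%, 7.97%, 7.51% and 13.6% of 32851 RefSeq windows of this length. Windows were matched for 5 of the 7 members, without Sox10 and Mbp, and no searched motif was found in those of S100b, Pmp22, Prx and Ngfr.
Th promoter: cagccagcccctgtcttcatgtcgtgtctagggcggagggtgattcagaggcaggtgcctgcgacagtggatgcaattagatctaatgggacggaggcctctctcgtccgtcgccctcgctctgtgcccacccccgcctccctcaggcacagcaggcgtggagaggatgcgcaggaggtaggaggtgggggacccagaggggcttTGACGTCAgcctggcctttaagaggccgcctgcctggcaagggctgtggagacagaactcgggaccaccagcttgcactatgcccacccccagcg

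Of 16 genes for catecholamine synthesis, storage and uptake only 4 were tested, all of them enzymes of tetrahydrobiopterin metabolism that many cells use (Gch1, Pts, Spr and Qdpr). Against iWAT, 0 were higher and 1 lower in tAT, beside 10.5% and 29.4% of all tested genes. Pts averaged 37.4 ± 12.3 FPKM in tAT, 68.6 ± 4.47 in BAT, 36 ± 2.57 in eWAT and 38.5 ± 7.3 in iWAT. The genes of catecholamine breakdown and clearance were better measured, with 8 of 8 tested. Maoa, a monoamine oxidase, averaged 6.25 ± 0.397 FPKM in tAT, 3.48 ± 0.315 in BAT, 17 ± 2.55 in eWAT and 11.2 ± 1.65 in iWAT, and fell in tAT by 0.74 relative to iWAT (limma adjusted p = 0.000157). In all, 0 of the 8 were higher and 4 lower in tAT than in iWAT, beside 10.5% and 29.4% of all tested genes. After median-of-ratios scaling 0 were higher and 2 lower, beside 15% and 21.2%. Of 18 matched genes of sympathetic neuron identity 3 were tested, Uchl1, Syp and Stmn2. Uchl1, a ubiquitin hydrolase abundant in neurons, was at 2.87 ± 0.949 FPKM in tAT, 0.61 ± 0.746 in BAT, 20.3 ± 3.37 in eWAT and 7.54 ± 1.39 in iWAT, so its order was not that of Ngfr or Sox10.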

How the data were processed

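RNA from frozen fat of 4 depots was extracted with Trizol and made into TruSeq libraries, per the labels' protocols. The deposited values are FPKM, computed by the authors with TopHat, TopHat2 2.0.9 and Cufflinks 2.1.1 on mm10, per the submitters' processing notes. Annotation and strand setting are not given in the sources used, and read depth is unknown, so no counting interval was computed. Depot and number came from the sample titles. Tests ran on log2(FPKM + 1), a scale that understates changes of low genes. A gene entered at 1 FPKM or more in 4 of 16 libraries, and the 14991 that did were fitted with limma 3.58.1 (R 4.3.3, trend, robust), with a mean per depot and 6 contrasts, and called where the p adjusted by Benjamini-Hochberg over them fell under 0.05. The script was tested on simulated data. Sox10, Ngfr and Foxd3, below the filter, were compared by two-sided exact permutation tests, 18 on FPKM and 18 after median-of-ratios scaling. Each set was adjusted on its own. Th was left out of the permutation tests and of the filtered fit, and entered only the limma fit with no filter. Median-of-ratios factors used genes above 0 in all libraries (0.711 to 0.753 in BAT, 1.04 to 1.18 elsewhere). Alternatives were scaling, pseudocount, filter, fit, replicate block, muscle and leaving out each library. Beside the members and preset targets (among them Clstn3, Egr2, Erbb3, Dbh and Ddc), a list's named genes were, per comparison, up to 2 called genes with the largest rise and 2 with the largest fall, or else the 2 highest, and others are said to be named afterwards or stand in a count of few. Positions are from GENCODE vM21, on the same build, and Bex3 was matched as Ngfrap1. Some genes that this rule names are not reported here. The members and lists were chosen with earlier results of these data known. Figures were drawn with matplotlib 3.10.9.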

Additional observations from a re-analysis of the deposited data

Results flagged for a closer look

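In 5 of 56 sets of 4 libraries (14 genes in 4 depots) 1 library stood far from the other 3 by Dixon's criterion. Chance meets it in about 1 in 20 sets. The 56 include the Th sets of tAT and iWAT, which were all 0 and could not be tested. A single value above 0 beside zeros is always flagged, so that rate does not apply to Th in BAT. Among the members, Mbp in iWAT 1 was at 17.43 FPKM, with 20.16 to 20.34 in iWAT 2 to 4, Sox10 in eWAT 2 was at 0.09819 FPKM against 0.01466 to 0.02646, and Th in BAT 3 was at 0.1453 FPKM against listed zeros. Of the other genes, Erbb3 in eWAT 3 was at 1.168 FPKM and Cldn19 in tAT 1 at 0.2249 FPKM.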

How the results depend on the processing

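Across the alternatives, 160 of 162 counts of members called stayed within 1.5 times the count reported. With no filter on low values the count was 4 for tAT against eWAT and 5 for BAT against eWAT, where Sox10 and Ngfr, and in the second Prx, joined S100b and Pmp22. Leaving out 1 library gave 2 to 3 members for tAT against BAT, 2 to 3 for BAT against eWAT, 2 to 3 for eWAT against iWAT, 2 for tAT against eWAT and 4 for the others. Signs turned for Mbp in tAT minus BAT (-0.249 with median-of-ratios scaling, -0.2666 with quantile normalization, -0.01756 without the muscle-rich libraries), in BAT minus eWAT (0.3687 and 0.3828 with those scalings) and in tAT minus eWAT (-0.08798 without the muscle-rich libraries, -0.02284 to 0.07911 leaving out 1 library), and for Prx in tAT minus BAT (-0.07966) and BAT minus eWAT (0.07715) with quantile normalization and in tAT minus eWAT (-0.1104 to 0.01334 leaving out 1 library). The cause was not tested. The Mbp call in tAT against BAT was also lost with no filter (adjusted p = 0.0546 in limma), with the 2 depots alone (0.0735), with the muscle covariate (0.0512) and without tAT 1 (0.116), tAT 4 (0.0681), BAT 3 (0.106) or BAT 4 (0.105). Mbp passed in BAT against eWAT without BAT 2 (0.0177) or eWAT 1 (0.0442), and Prx without eWAT 4 (0.0126), with a pseudocount of 0.1 (0.0491), with no trend (0.0376) or with no filter (0.0494). All calls of S100b and Pmp22 held under every alternative, except S100b in eWAT against iWAT without eWAT 1 (0.055).

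With the replicate number as a block, 4, 2 and 3 members were called for tAT against iWAT, eWAT and BAT, 4 and 2 for BAT against iWAT and eWAT, and 3 for eWAT against iWAT, as without it. Deviations of 24 same-numbered pairs correlated at -0.274 to 0.23, with 4 over 0.1. Pairs with different numbers were not compared, so these values cannot show whether same-numbered libraries came from the same mouse. Low FPKM of Sox10, Ngfr and Th and the unknown depth limit what their differences can show.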
